A study of Sus scrofa with 48 samples.

Results

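Solute carriers are the membrane proteins that move amino acids, sugars, ions, metals, nucleotides and vitamins across the plasma membrane and the membranes of organelles. The genes described here are those whose single gene symbol in the array annotation starts with SLC and a digit, without SLC25A1, SLC2A1, SLC2A5, SLC37A4 and SLC10A1, which belong to the core of lipid, glucose and bile acid handling. This rule found 115 of the 6765 genes that carried 1 symbol, measured by 170 probe sets, and the rule used no signal other than the mean brightness that picked 1 probe set per gene. By substrate they fell into 20 carriers of the SLC25 family (19 mitochondrial, and the peroxisomal SLC25A17), 19 carriers of amino acids and peptides, 14 of inorganic ions, 14 of nucleosides, nucleotide sugars and acetyl-CoA, 12 of metals, 12 of sugars and inositol, 9 of vitamins, choline and heme, 6 of organic ions, 2 of fatty acids, 2 of neurotransmitters and osmolytes, and 2 of monocarboxylates. The other 3, SLC2A4RG, SLC9A3R1 and SLC9A3R2, share only the symbol: the first is a DNA-binding regulator of the glucose transporter gene SLC2A4, and the other two are scaffold proteins. SLC7A5 and SLC16A1, a large neutral amino acid carrier and a lactate carrier, were not among the genes with a single symbol.

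The arrays came from 24 Yorkshire gilts, young female pigs, aged 6 months, from a line bred for high feed efficiency through low residual feed intake. Of these, 12 were homozygous for the D298 (wildtype) form of MC4R and 12 for the N298 form. MC4R is a brain receptor that curbs appetite and raises energy use. Within each genotype 6 gilts had free access to feed and 6 were fasted for 3 days, and liver and fat of each gilt were hybridised to 1 array each, which gave 8 groups of 6 arrays. The labels call the second tissue fat and name no depot.

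In a fast, fat cells release fatty acids, and the liver takes them up and oxidises them in mitochondria. The inner mitochondrial membrane lets few molecules pass unaided, so carriers of the SLC25 family bring in acylcarnitine, phosphate, ADP and nucleotides and send out ATP and metabolites. At the plasma membrane, sodium- and proton-coupled carriers take up amino acids and nutrients, and the SLC2 family lets glucose pass down its gradient.

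Values are signals, the authors' scaled brightness of a probe set on a linear scale, and changes are differences of log2 signal, so that 1 stands for a doubling. A gene was called, and is said to have risen or fallen, at a Benjamini-Hochberg adjusted p under 0.05 in a limma model over all 23999 probe sets; each error given with a change is the standard error of that model. Array medians lay between 123 and 149 for liver and between 159 and 193 for fat arrays. The median probe set had a signal of 130.1 in liver and of 169.1 in fat; 76 of the 115 genes lay above it in liver, 67 in fat and 84 in at least 1 tissue. The mean log2 signal of 9 hepatocyte markers was 14.6 to 15.12 on the liver arrays, and that of 6 adipocyte markers 12.22 to 13.07 on the fat arrays. On 4 fat arrays (N298 fed 3 and 6, D298 fed 4 and D298 fasted 5) the hepatocyte mean was 9.78 to 10.07, against 5.74 to 6.57 on the other 20. The mean of 6 skeletal muscle markers also ran from 3.93 to 12.98 among the fat arrays, and with fasting 0 of these 6 genes were called in fat. Where leaving out these 4 arrays ended the fasting call of a gene in fat, this is said beside it.

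In fed gilts the tissues differed in most of these genes. At adjusted p under 0.05, 35 of 115 were higher in fat and 45 higher in liver (69.6%), where 62.3% of all probe sets (40.2% higher in fat, 22.1% higher in liver) and 72.8% of all genes were called. The split depends on how the tissues are scaled to each other: with arrays centred on their medians it was 27 and 57, and with quantile normalization 28 and 55, since these settings moved the median difference of all probe sets by -0.29 and -0.17. The genes nearest the diagonal therefore have no settled direction between the tissues, while the differences named next, of 2.76 and more, exceed these shifts.

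The largest excess in fat was that of SLC36A2, a proton-coupled carrier of glycine, proline and alanine. Its signal in fed fat ran from 1135 to 2550 with a median of 2077, against 6.08 to 52.5 with a median of 19.6 in fed liver, a difference of 6.82 ± 0.33 (adjusted p = 2.28e-23). SLC25A33, a mitochondrial carrier of pyrimidine nucleotides, followed with medians of 5446 in fat and 62.5 in liver (6.34 ± 0.28). SLC36A2 and SLC25A33 were thus bright in fat and below the median probe set in liver, where the size of the difference rests on a dim signal. The glutamate carrier SLC1A3 (3.54 ± 0.23), a further pyrimidine nucleotide carrier, SLC25A36 (3.16 ± 0.19), and the ATP-Mg/phosphate carrier SLC25A24 (2.94 ± 0.11) completed the 5 largest; SLC1A3 and SLC25A36 too were dim in fed liver (medians 20.3 and 58.1). The glutamine carrier SLC1A5 stood at a median of 2656 in fed fat and 415 in fed liver (2.76 ± 0.093), and no fed fat array reached down to a fed liver array.

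In the other direction stood SLC2A2, the glucose carrier through which hepatocytes take up and release glucose. Its median signal was 2496 in fed liver (1799 to 3861) and 17.7 in fed fat (6.06 to 61.7), a difference of -7.07 ± 0.31. SLC17A1, a sodium-phosphate and urate carrier, had medians of 812 in fed liver and 4.99 in fed fat (-6.91 ± 0.38). SLC7A9 (-5.18 ± 0.39) and SLC3A1 (-4.34 ± 0.19), the light and heavy chains of 1 transporter of cystine and basic amino acids, were both higher in liver by the rule's probe sets, at medians of 245 and 1066 against 6.6 and 51.2 in fat. A second SLC3A1 probe set, the brighter one in fat, had mean log2 signals of 7.65 in liver and 8.21 in fat over fed and fasted arrays. The direction for SLC3A1 thus rests on the probe set. The glutamate carrier SLC1A2 differed by -4.23 ± 0.53, with fed liver arrays spread from 71.4 to 559 and a fed fat median of 15.7. By the probe sets of the rule all 5 lay far below the median probe set in fat, so the sizes of these differences, and their order, rest on dim signals.

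Of the 20 SLC25 genes 12 were higher in fat and 3 in liver (10 and 5 under either other scaling). Of all probe sets 40.2% were higher in fat and 22.1% higher in liver. Among all called probe sets 64.6% were higher in fat, and 47.3% with median-centring and 54.6% with quantile normalization. The ADP/ATP carriers, which exchange mitochondrial ATP for ADP, did not share 1 direction. SLC25A4 was higher in liver (-1.48 ± 0.12), and SLC25A5 (0.76 ± 0.11) and SLC25A6 (0.57 ± 0.083) were higher in fat; median-centring gave -1.77, 0.47 and 0.28, and quantile normalization -1.23, 0.91 and 0.97, all called in the same directions. These paralogs are close in sequence, and how far a probe set for one also binds RNA of another was not tested. Of the nucleoside, nucleotide sugar and acetyl-CoA carriers, which largely serve the secretory pathway, 10 of 14 were higher in liver and 2 in fat. Under either other scaling these were 12 and 2. Of all genes 72.8% were called in either direction.

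**Figure D1:**
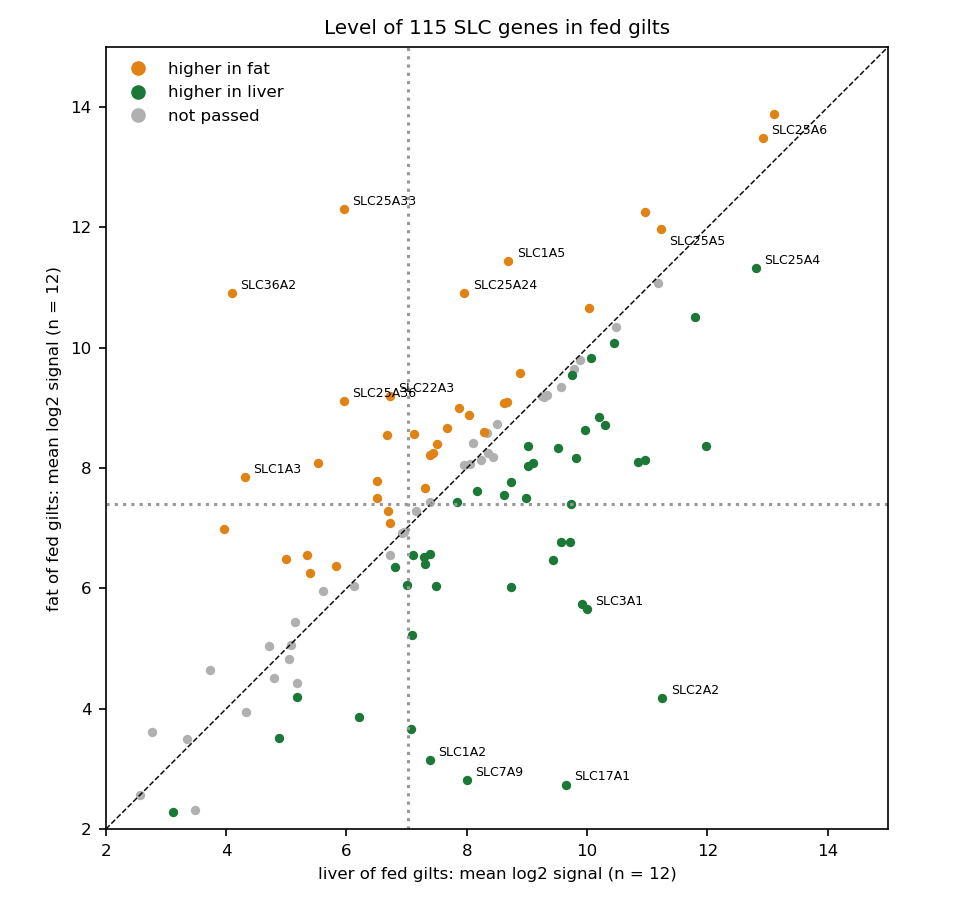
Mean log2 signal of each of the 115 genes in the liver (x axis) and fat (y axis) of 12 fed gilts; the dashed line marks equal signal, dotted lines the median probe set of each tissue, and colour the direction of called differences. SLC36A2 and SLC25A33 lie far above the line and SLC2A2, SLC17A1 and SLC7A9 far below it, while SLC25A4 and SLC25A6, among the brightest genes, lie close to it on opposite sides.

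Fasting changed few of these genes in liver. Of 115, 4 rose and 6 fell (8.7%), where 4.47% of all probe sets and 7.2% of all genes were called; 2.27% of probe sets rose and 2.2% fell. The median change of the 115 was 0.0, and that of all genes 0.005. The split of called genes was 6 and 5 with median-centring and 5 and 6 with quantile normalization, settings under which 68.1% and 53.6% of all called probe sets were rises, against 50.8%. Of the 105 genes not called, 38 lay below the median probe set. As in any bulk tissue, fewer cells of a type and less RNA per cell cannot be told apart here. Among the cell type markers in liver, 1 of 5 fibroblast markers fell (POSTN, by 0.54 on the log2 scale), with list means of 8.7 to 9.48 fed and 8.29 to 9.05 fasted. The adipocyte marker FABP4 rose by 1.37 (1 of 6 called, list means 5.01 to 6.75 fed and 5.11 to 6.48 fasted), and the keratinocyte marker KRT10 by 0.48 (1 of 3, list means 6.82 to 8.04 and 7.06 to 8.38). None of the hepatocyte, macrophage, lymphocyte, endothelial, skeletal muscle and erythroid markers was called in liver, and the part of these shifts in the liver results was not tested.

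The rises in liver were mitochondrial carriers and 1 fatty acid carrier. SLC25A20, which carries acylcarnitines into mitochondria for oxidation, had signals of 857 to 1309 with a median of 1043 in fed liver and of 1300 to 2459 with a median of 1851 in fasted liver. The ranges touched, with 11 of 12 fasted arrays above every fed array. The change was 0.83 ± 0.097 (1.78-fold, adjusted p = 8.76e-06), and it was 0.83 in each genotype.

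SLC25A30, a mitochondrial carrier related to the uncoupling proteins, rose most. Its signal was 120 to 632 (median 246) in fed liver and 421 to 1067 (median 641) in fasted liver. The ranges overlapped, but every fasted array exceeded the fed median, and the change was 1.21 ± 0.22 (2.31-fold, adjusted p = 0.00131). In fat SLC25A20 (-0.044 ± 0.087) and SLC25A30 (-0.10 ± 0.17) were not called.

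SLC25A33 also rose, at 23.9 to 106 (median 62.5) in fed liver and 55.7 to 331 (median 110) in fasted liver, a change of 0.92 ± 0.25 (adjusted p = 0.0372). It is dim in liver, and this call was lost in eBayes without trend and when any of replicates 3, 4, 5 or 6 was left out. SLC25A37, mitoferrin 1, which brings iron into mitochondria for heme synthesis, fell from a median of 513 (407 to 703) to 389 (261 to 477), by 0.45 ± 0.12 on the log2 scale (adjusted p = 0.0272). Its second probe set changed alike (-0.50 ± 0.14, adjusted p = 0.0464), while the call on the first was lost in 5 of 13 alternatives. Of 3 erythroid markers measured in the liver, 0 were called, and their median change was -0.36; their part in the SLC25A37 result was not tested. The other 16 SLC25 genes, with changes from -0.38 to 0.23, were not called.

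SLC27A6, a fatty acid transport protein of the acyl-CoA synthetase family, had signals of 148 to 1000 (median 308) in fed and 355 to 1023 (median 633) in fasted liver. The change was 0.98 ± 0.24 (adjusted p = 0.0192), and 1 of 12 fasted arrays lay above every fed array, since 1 fed array, N298 replicate 1, stood at 1000. The gene's other probe sets, both dimmer, gave -0.09 ± 0.22 and 0.09 ± 0.29 and were not called, so the rise was seen by 1 of 3 probe sets. This call was lost in eBayes without trend and without replicate 4 or replicate 6 (adjusted p up to 0.125).

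Among the carriers of amino acids and peptides 2 of 19 fell in liver and 0 rose, where 7.2% of all genes were called in either direction. SLC1A1, a high-affinity carrier of glutamate, aspartate and cysteine, went from a median of 735 (540 to 1667) to 466 (351 to 795), and 9 of 12 fasted arrays lay below every fed one. The change was -0.67 ± 0.13 (adjusted p = 0.00224). SLC38A9, a lysosomal carrier through which arginine signals to mTORC1, fell from a median of 1132 (779 to 1268) to 813 (644 to 1101), by 0.35 ± 0.093 on the log2 scale (adjusted p = 0.0338). The SLC38A9 call was lost in 7 of 13 alternatives, whereas that of SLC1A1 was kept in all 13. A second, dimmer SLC38A9 probe set (mean log2 signal 6.77 in liver) changed by -0.12 ± 0.18 and was not called (adjusted p = 0.796). A second SLC1A1 probe set of good brightness in liver (mean log2 signal 8.32) changed by -0.35 ± 0.12 and was not called (adjusted p = 0.0993). SLC3A2, the heavy chain that several amino acid exchangers need to reach the cell surface, had medians of 494 fed and 465 fasted (-0.12 ± 0.14) and was not called. The 10 brighter amino acid carriers not called changed by -0.24 to 0.64.

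The other falls in liver were in separate classes. SLC46A1, the proton-coupled folate carrier, went from a median of 1022 (807 to 1152) to 689 (560 to 846), a change of -0.51 ± 0.082 (adjusted p = 0.000446). Its ranges overlapped narrowly, and its second probe set fell too (-0.66). SLC26A6, an anion exchanger for chloride, bicarbonate and oxalate, went from a median of 170 (128 to 215) to 115 (44.8 to 188), a change of -0.68 ± 0.15 (adjusted p = 0.00791); without replicate 6 it was not called. The scaffold gene SLC9A3R2 changed by -0.43 ± 0.089. None of the 12 sugar, 12 metal, 14 nucleotide-related, 6 organic ion and 2 monocarboxylate genes was called in fasted liver. SLC2A2 was among them, at medians of 2496 fed and 2206 fasted. Of all genes 7.2% were called in liver.

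Fasting changed more of these genes in fat, and most of those called fell. Of 115, 7 rose and 21 fell (24.3%), where 25.2% of all probe sets and 34.2% of all genes were called; 10.1% of probe sets and 18.9% of genes fell, and 15.1% of probe sets and 15.3% of genes rose. The median change was -0.028 over the 115 genes and 0.01 over all genes. With median-centring 5 rose and 26 fell, and with quantile normalization 7 and 25, while the share of rises among all called probe sets moved from 60.1% to 43.2% and 52.4%. Without the 4 arrays with hepatocyte transcripts 6 rose and 16 fell, and with the muscle marker mean as a covariate 7 and 21.

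Cell type markers also moved with fasting in fat. Of 7 endothelial markers 4 rose (PECAM1, VWF, TEK and TIE1) and 0 fell, and the mean log2 signal of the list was 9.37 to 10.19 in fed and 9.89 to 10.65 in fasted fat. Of 5 fibroblast markers 2 fell (LUM by 1.24 and COL1A2 by 1.02 on the log2 scale), with list means of 11.82 to 12.74 fed and 11.09 to 12.08 fasted. Of 6 adipocyte markers LPL fell and CFD rose, and the list mean was 12.5 to 13.07 fed and 12.22 to 12.88 fasted. Of 9 hepatocyte markers APOA1 rose (0.70) and the other 8 were not called, and of 3 erythroid markers HBB rose (0.36). Macrophage (5 genes), lymphocyte (6 genes) and keratinocyte (3 genes) markers had 0 calls. The part of these shifts in the results below was not tested.

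**Figure D2:**
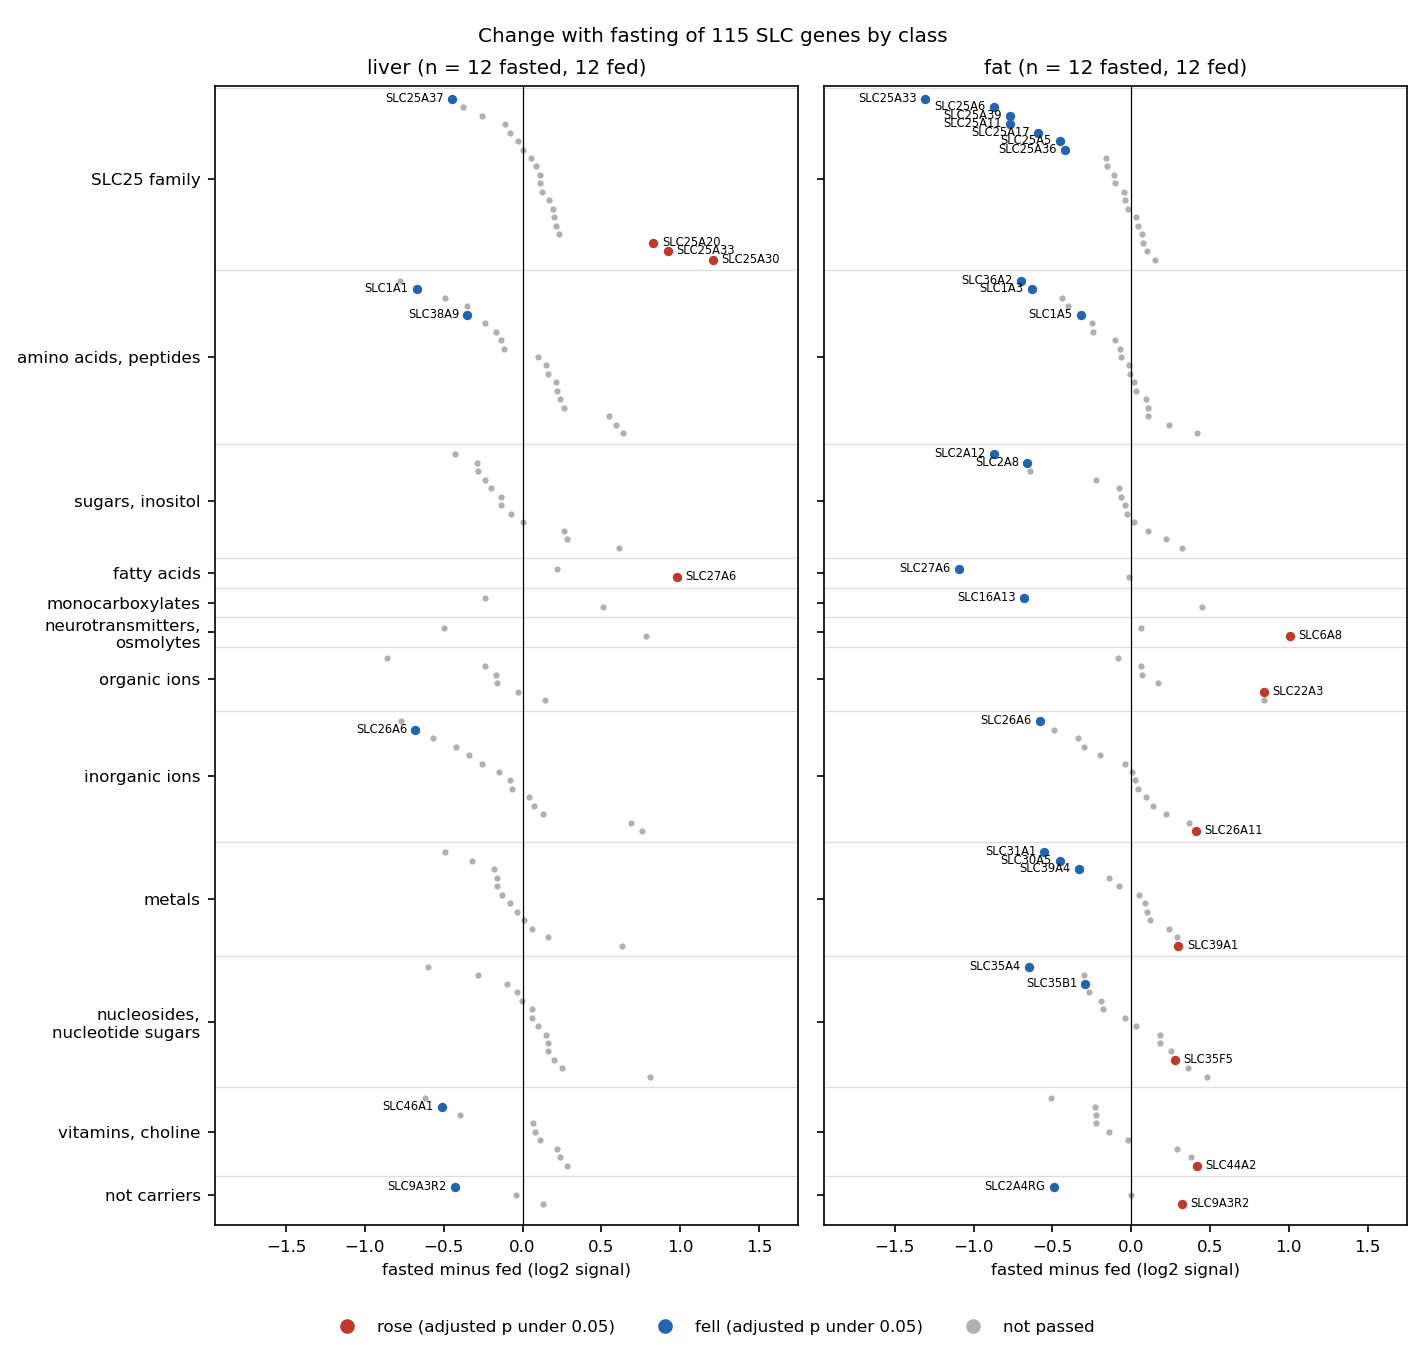
Change with fasting (fasted minus fed, log2 signal, x axis) of each of the 115 genes in liver and fat, 12 fasted against 12 fed gilts per tissue, ordered by size within each class; red genes rose, blue genes fell and grey genes did not pass. In liver 4 are red and 6 blue, in fat 7 are red and 21 blue, and the SLC25 family holds 3 red and 1 blue in liver and 7 blue in fat.

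The SLC25 family held 7 of the 21 falls in fat: 7 of 20 genes fell, 0 rose, and their median change was -0.11. Of the 19 mitochondrial ones 6 fell, and the other was the peroxisomal SLC25A17. Under median-centring 9 of the 20 fell and under quantile normalization 8, with 0 rises in both. On the signals as deposited, 18.9% of all genes fell in fat and 15.3% rose. Rises made up 60.1% of all called probe sets on those signals, 43.2% with median-centring and 52.4% with quantile normalization. SLC25A6, an ADP/ATP carrier and one of the brightest of these genes, had signals of 9373 to 14057 (median 11305) in fed and of 4652 to 8073 (median 6501) in fasted fat. The ranges did not overlap. The change was -0.87 ± 0.085 (1.82-fold lower, adjusted p = 2.58e-07). SLC25A5 fell less, from a median of 3913 (2684 to 6412) to 2875 (1875 to 4390), with overlapping ranges and a change of -0.45 ± 0.11 (adjusted p = 0.004). The SLC25A5 call was lost without the 4 arrays with hepatocyte transcripts, one of which, N298 fed replicate 3, held its highest signal.

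The third ADP/ATP carrier, SLC25A4, known as the form of heart and skeletal muscle, was not called in either tissue. Its fat signals were 1964 to 3645 (median 2575) fed and 1345 to 4002 (median 2167) fasted, and the fasted arrays spread wider than the fed ones on both sides. The change was -0.11 ± 0.14 in fat (adjusted p = 0.621) and -0.026 ± 0.075 in liver. Within the 4 groups its fat signal went with the muscle marker mean: over the 24 arrays, as deviations from group means, Pearson's r was 0.73 (permutation p = 0.00059 within groups; 0.0395 after Benjamini-Hochberg adjustment over the 67 brighter genes) and Spearman's rho 0.69 (permutation p = 0.00164). None of the 67 had a higher r, their median was -0.1, and without the 2 arrays farthest from the median marker level r was 0.75. Of the dimmer genes, SLC26A6 had an r of 0.64 and SLC38A1 one of 0.57. With the muscle marker mean as a covariate the change of SLC25A4 in fat was -0.14 ± 0.10 and likewise not called (adjusted p = 0.392). These values describe a correlation only. Whether muscle tissue in the fat samples caused the spread of SLC25A4 was not tested.

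SLC25A39, which brings glutathione into mitochondria, fell from 683 to 1036 (median 790) in fed fat to 373 to 593 (median 469) in fasted fat. No fasted array reached the fed range. The change, -0.77 ± 0.068, had the smallest adjusted p of the 115 genes in fat (7.67e-08). SLC25A11, the 2-oxoglutarate/malate carrier of the malate-aspartate shuttle, changed by -0.77 ± 0.15 (medians 418 and 261), and 9 of 12 fasted arrays lay below every fed array. SLC25A17, a family member of the peroxisomal rather than the mitochondrial membrane, went from a median of 5048 (3914 to 5940) to 3331 (2719 to 4203), a change of -0.59 ± 0.066. For SLC25A17 11 of 12 fasted arrays lay below the fed range.

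Both pyrimidine nucleotide carriers fell in fat. SLC25A33 went from 1017 to 10912 (median 5446) in fed fat to 797 to 4127 (median 2267) in fasted fat, the largest called change in fat among the 115 probe sets of the rule (-1.31 ± 0.34, 2.47-fold lower, adjusted p = 0.00659). The groups overlapped: D298 fed replicate 1, at 1017, lay far below the other fed D298 arrays (4969 to 10912), and the fed N298 arrays at 2371 and 4088 also lay within the fasted range. A second, dim probe set (mean log2 signal 4.56 in fat) gave -0.02 ± 0.39 and was not called. The SLC25A33 call was kept in all 15 alternatives, with changes from -1.67 to -1.07. Of the genes above the median probe set in fat it varied most within groups (SD of log2 0.85, against a median of 0.29 over those genes). SLC25A36 changed by -0.42 ± 0.14 (medians 602 and 422), and its call was lost without replicate 1, 3 or 5.

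The partners of these carriers moved as follows. The porins VDAC1, VDAC2 and VDAC3, through which metabolites cross the outer mitochondrial membrane, all fell in fat (-0.88, -0.71 and -0.27). The subunits of the mitochondrial pyruvate carrier, MPC1 and MPC2, fell in fat (-0.39 and -1.27) and rose in liver (0.44 and 0.74). MTCH1 and MTCH2, SLC25 relatives of the outer membrane, fell in fat (-0.25 and -1.11). UCP2 (0.26) and UCP3 (0.16) were not called there. Over all 19 measured genes of the partner, related carrier and amino acid response lists, 1 rose and 10 fell in fat, and 2 rose and 0 fell in liver. Of all genes 15.3% rose and 18.9% fell in fat, and 7.2% were called in either direction in liver. These lists were chosen with earlier results of these data known.

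Of the amino acid carriers 3 of 19 fell in fat and 0 rose, where 18.9% of all genes fell and 15.3% rose. SLC1A3 went from a median of 250 (148 to 353) to 154 (88 to 206), a change of -0.63 ± 0.12 (adjusted p = 0.000576), with every fasted array below the fed median. SLC36A2 went from a median of 2077 (1135 to 2550) to 1227 (643 to 2230), a change of -0.70 ± 0.19 (adjusted p = 0.0101). The SLC36A2 groups overlapped, and the call was lost without replicate 4, without replicate 6 and without the 4 arrays with hepatocyte transcripts. SLC1A5 changed by -0.32 ± 0.096 (medians 2656 and 2265, adjusted p = 0.0168), and its call was lost in 4 of 15 alternatives, among them that without the 4 arrays with hepatocyte transcripts. SLC3A2, at medians of 771 fed and 759 fasted (-0.065 ± 0.12), was not called. Of the amino acid response genes, which are induced when amino acids are scarce, the transcription factor gene ATF4 rose by 0.30 and ASNS, asparagine synthetase, fell by 0.33 on the log2 scale in fat, and DDIT3 was not called; in liver 0 of 3 were called.

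Of the sugar carriers 2 of 12 fell in fat by the probe sets of the rule, where 18.9% of all genes fell. SLC2A12, a glucose carrier, went from 212 to 355 (median 262) to 101 to 212 (median 156), a change of -0.87 ± 0.12 (1.82-fold lower, adjusted p = 2.66e-05). The groups did not overlap, although the lowest fed and the highest fasted array both stood at 212. SLC2A8, an intracellular sugar carrier, changed by -0.66 ± 0.19 (medians 189 and 132, adjusted p = 0.0149) and was not called without replicate 5.

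SLC2A4, the insulin-responsive glucose carrier of muscle and fat, shows what the choice of probe set does. The probe set that is brightest over all 48 arrays had a median signal of 102 in fed and 96.3 in fasted fat, both below the median probe set (-0.038 ± 0.21, adjusted p = 0.927). A second probe set is the brighter one in fat (mean log2 signal 7.24). Its signals were 120 to 702 (median 275) in fed and 44.3 to 158 (median 93.7) in fasted fat. The ranges overlapped only between 120 and 158, and the change was -1.49 ± 0.20 (adjusted p = 9.65e-06). The remaining one, dim at a mean log2 signal of 4.88, gave -0.49 ± 0.40. In liver, where all are dim, 0 of the 3 were called.

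Taking the brightest probe set within each tissue would swap the probe set of 2 genes in liver and 6 in fat. Of these 2 were called, SLC2A4 and SLC46A3, a lysosomal carrier (0.35 ± 0.11, adjusted p = 0.0224, against -0.018 by the rule), so that 8 genes rose and 22 fell in fat. SLC39A1 and SLC26A11, which rose in fat, had second probe sets that were not called (-0.11 and 0.07).

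**Figure D3:**
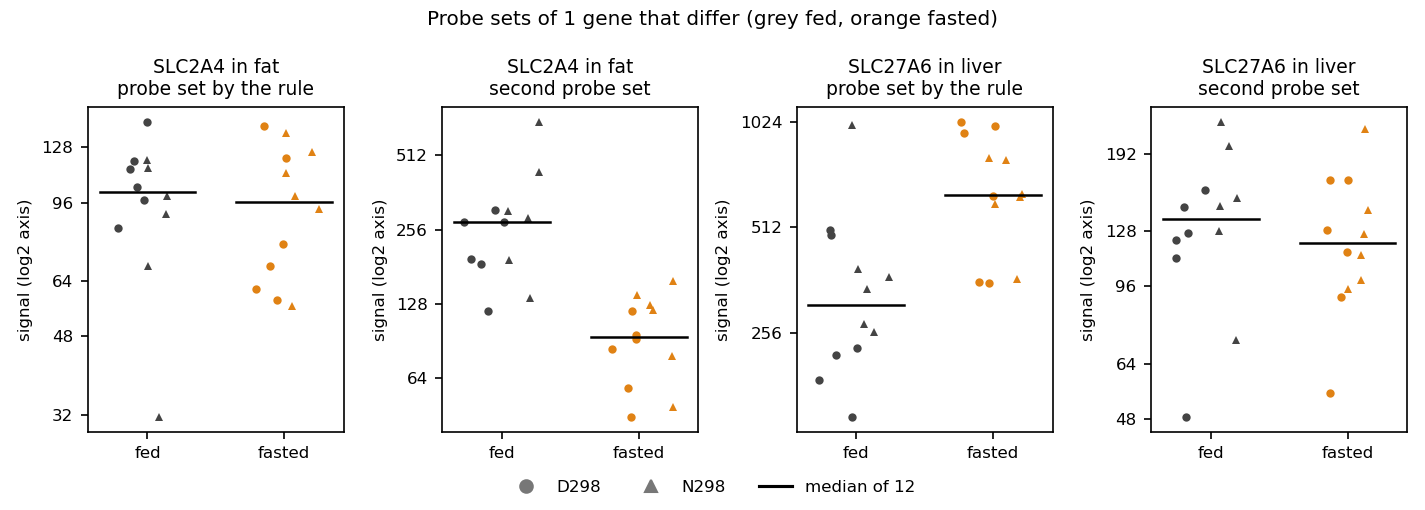
Signal on every array (y axis, log2 scale) of the rule's probe set and a second one for SLC2A4 in fat and SLC27A6 in liver, in 12 fed and 12 fasted gilts each, circles D298, triangles N298, lines medians. The second SLC2A4 probe set is lower in fasted fat (medians 275 and 93.7) while the first is level (102 and 96.3); for SLC27A6 the first probe set is higher in fasted liver and the second is not.

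SLC27A6 fell in fat, from a median of 398 (243 to 590) to 179 (107 to 295), with 9 of 12 fasted arrays below every fed array. The change was -1.09 ± 0.16 (2.13-fold lower, adjusted p = 3.37e-05), and unlike in liver the second probe set changed alike (-1.11, adjusted p = 0.0219). The third, dim at a mean log2 signal of 4.71, gave -0.48 ± 0.41 and was not called (adjusted p = 0.446). SLC16A13, a monocarboxylate carrier, went from a median of 345 (162 to 714) to 215 (111 to 278), a change of -0.68 ± 0.15 (adjusted p = 0.00192). SLC16A3, an exporter of lactate, was dim in both tissues (medians 14.7 to 37.8) and not called. BSG, the chaperone that takes monocarboxylate carriers to the membrane, changed by -0.36 in fat.

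The largest rise in fat was that of SLC6A8, the sodium-coupled carrier that takes up creatine. Its signals were 435 to 673 (median 544) in fed and 711 to 1804 (median 1137) in fasted fat. Every fasted array exceeded every fed one, and the change was 1.01 ± 0.11 (2.01-fold, adjusted p = 5.46e-07). In liver its medians were 417 fed and 317 fasted (-0.50 ± 0.17), which was not called (adjusted p = 0.114).

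SLC22A3, organic cation transporter 3, which clears catecholamines and other amines from outside the cell, likewise rose without overlap. Its signals were 435 to 725 (median 599) in fed and 738 to 1513 (median 996) in fasted fat, a change of 0.84 ± 0.10 (1.79-fold, adjusted p = 2.83e-06). SLC44A2, a choline transporter-like protein, changed by 0.42 ± 0.092 (medians 536 and 745), and both further probe sets of the gene were called in the same direction (0.42 and 0.55). The calls of SLC6A8, SLC22A3 and SLC44A2 were kept in all 15 alternatives.

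**Figure D4:**
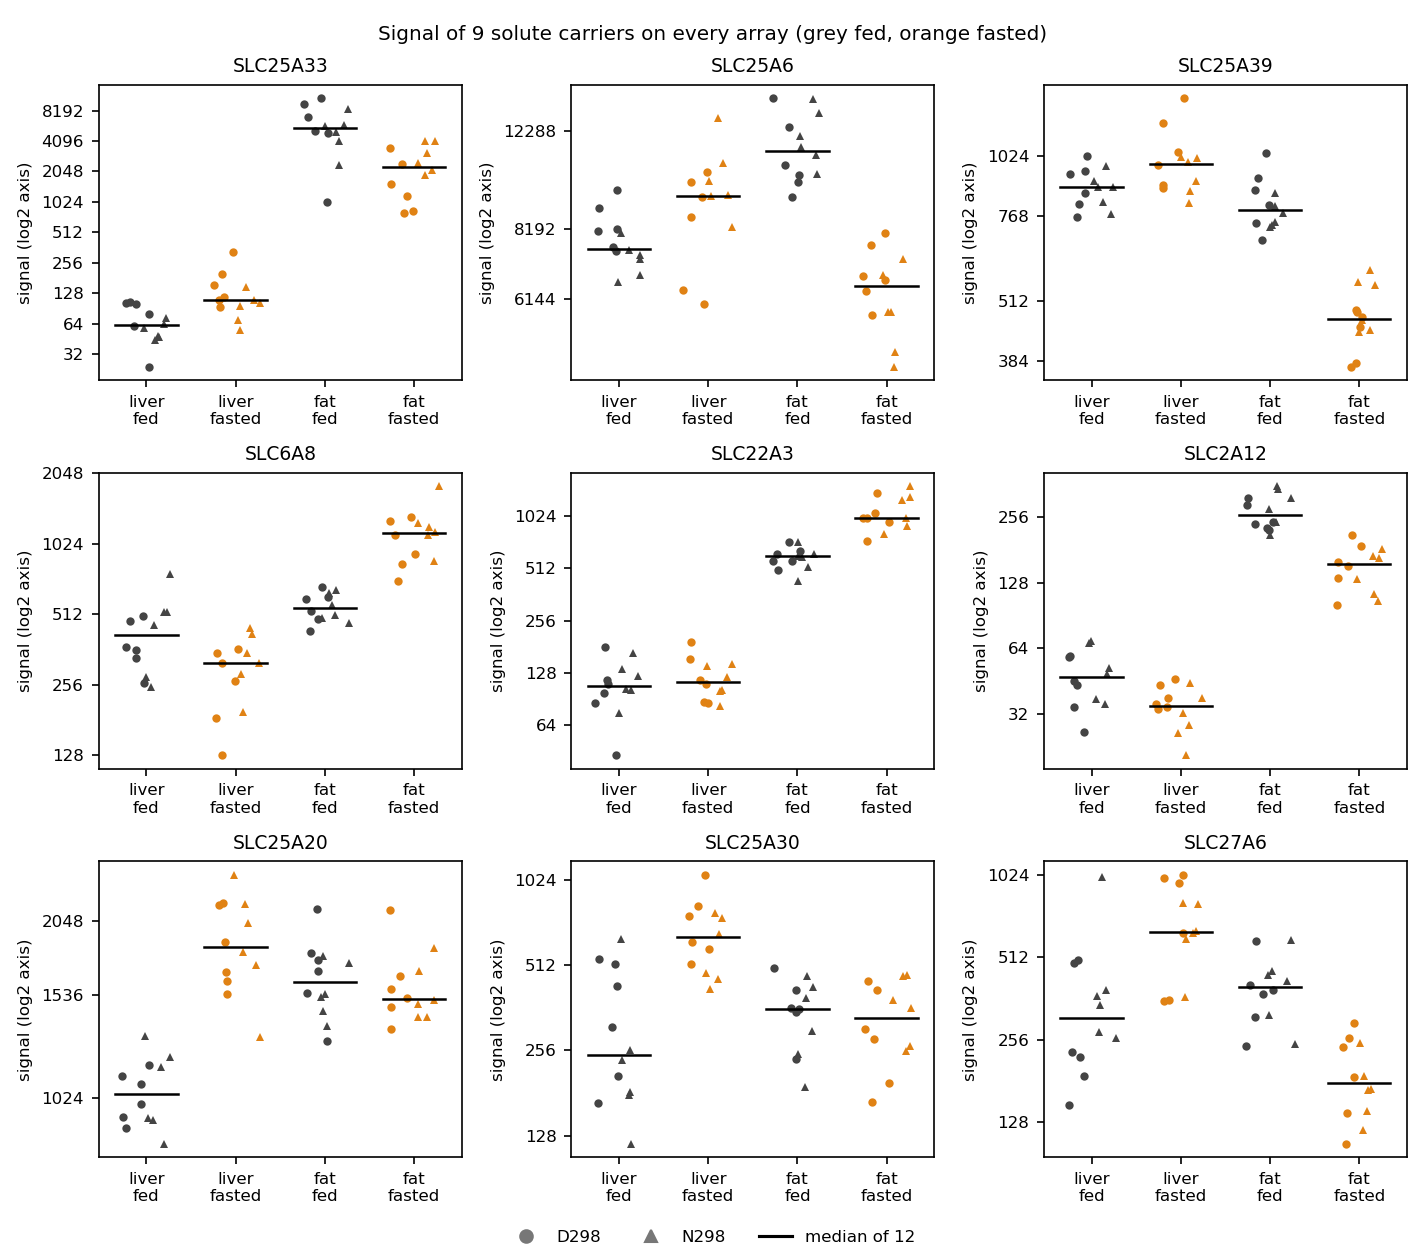
Signal on every array (y axis, log2 scale) of 9 genes in liver and fat, fed in grey and fasted in orange, circles D298 and triangles N298, with lines at the median of 12. In fat the fed and fasted arrays of SLC25A6, SLC25A39, SLC6A8, SLC22A3 and SLC2A12 do not overlap; SLC25A20 and SLC25A30 are higher in fasted liver and level in fat.

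Of the 14 inorganic ion carriers 2 were called in fat, and of the 12 metal carriers 4, where 34.2% of all genes were called. The sulfate and chloride carrier SLC26A11 rose in fat (0.41 ± 0.11) and SLC26A6 fell (-0.58 ± 0.16), the latter not called without replicate 1 or without the 4 arrays with hepatocyte transcripts; the other 12 inorganic ion carriers were not called, and 10 of these lay at or below the median probe set. Among metal carriers the copper importer SLC31A1 (-0.55 ± 0.13), the zinc carrier of the secretory pathway SLC30A5 (-0.45 ± 0.089) and the zinc importer SLC39A4 (-0.33 ± 0.12) fell, and the zinc importer SLC39A1 rose (0.30 ± 0.073). SLC39A4 rested on the settings, since its call was lost in 9 of 15 alternatives, the one without the 4 arrays with hepatocyte transcripts included. A second SLC30A5 probe set fell by 0.87 on the log2 scale, and a dim one did not pass (0.60 ± 0.52); a dim second probe set of SLC31A1 did not pass either (0.87 ± 0.33, adjusted p = 0.0623).

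Of the 14 carriers of nucleosides, nucleotide sugars and acetyl-CoA, SLC35B1, which supplies ATP to the endoplasmic reticulum, fell in fat (-0.29 ± 0.072), as did SLC35A4 by both of its probe sets (-0.65 and -0.61). SLC35F5 rose (0.28 ± 0.10), a call lost in 7 of 15 alternatives, again with the one without those 4 arrays. Its further probe sets gave 0.17 ± 0.094 and 0.17 ± 0.16 and were not called (adjusted p = 0.219 and 0.504). The regulator SLC2A4RG fell (-0.49 ± 0.085). The scaffold gene SLC9A3R2 rose (0.32 ± 0.11), also lost in 7 of 15.

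The fasting responses of the tissues were then compared directly, in a model of all 48 arrays with the gilt as a block. The difference, response in fat minus response in liver, was called for 25 of 115 genes (21.7%), where 16.1% of all probe sets and 24.0% of all genes were called. It was positive for 8 and negative for 17; median-centring gave 4 and 26, and quantile normalization 5 and 22, settings that moved the median difference of all probe sets by -0.14 and -0.11. Without the 4 arrays with hepatocyte transcripts 20 were called. Of the 20 SLC25 genes 9, SLC25A17 among them, had a negative difference and 1 a positive one, against 7.26% and 8.84% of all probe sets and 15.1% and 8.91% of all genes; median-centring gave 9 and 1, and quantile normalization 8 and 1.

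SLC25A33 and SLC27A6 were called in opposite directions, rising in liver and falling in fat. The difference was -2.23 ± 0.39 for SLC25A33 (adjusted p = 3.11e-05) and -2.07 ± 0.29 for SLC27A6 (adjusted p = 7.04e-07), though the liver side of each has the limits given above. SLC9A3R2 went the other way, down in liver and up in fat (0.75 ± 0.15). Only SLC26A6 was called in the same direction in both tissues, and with these the 4 genes called in both are complete.

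Other genes were called for fasting in 1 tissue. SLC25A20 (-0.87 ± 0.12) and SLC25A30 (-1.31 ± 0.29) rose in liver and were near 0 in fat. SLC25A6 (-1.10 ± 0.12, adjusted p = 1.31e-09) and SLC25A39 (-0.93 ± 0.10) fell in fat, beside liver changes of 0.23 and 0.17 that were not called; that of SLC25A6 was called under median-centring and with array weights. SLC6A8 had the largest positive difference (1.5 ± 0.22, adjusted p = 1.32e-06), from a called rise in fat and an uncalled change of -0.50 in liver.

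**Figure D5:**
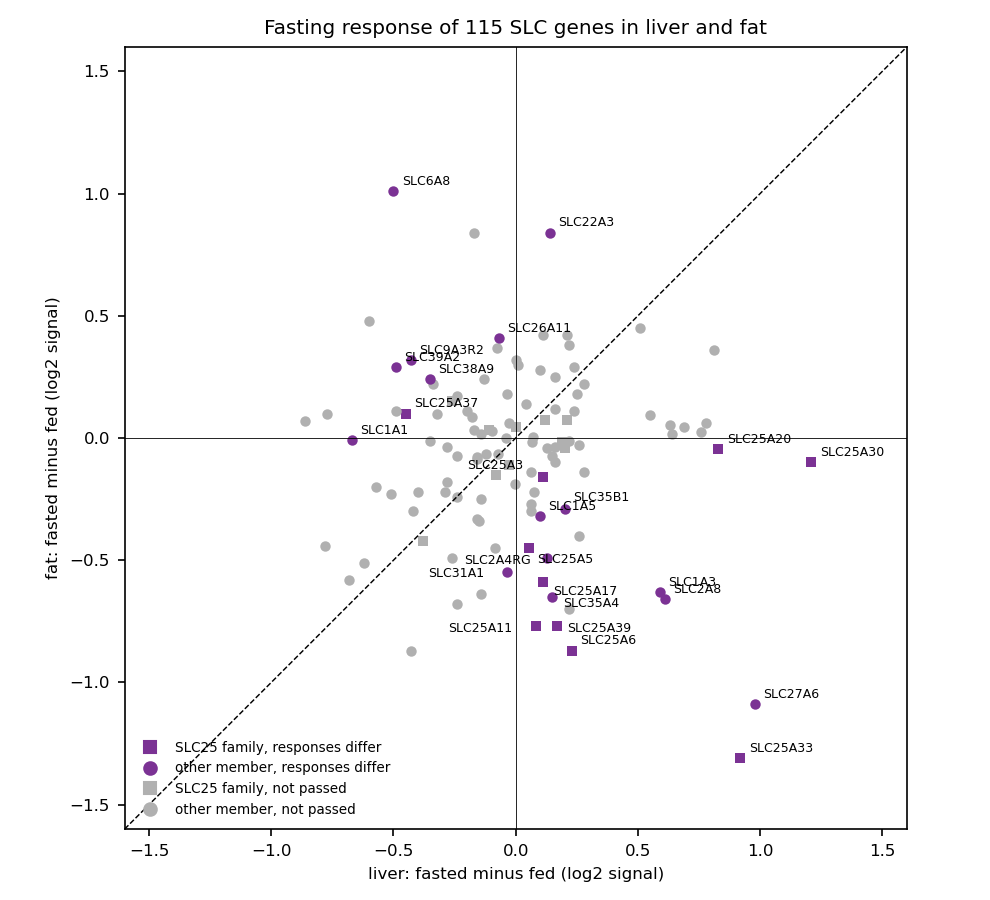
Fasting change (fasted minus fed, log2 signal) of each of the 115 genes in liver (x axis) against fat (y axis); squares are genes of the SLC25 family, purple marks the 25 genes whose responses differed, and the dashed line marks equal responses. SLC25A33 and SLC27A6 lie at the lower right (up in liver, down in fat), SLC6A8 at the upper left, and SLC25A20 and SLC25A30 near 0 in fat.

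MC4R genotype changed none of these genes by the threshold. In each tissue 0 of 115 were called for N298 minus D298, and 0 for the interaction of genotype with fasting, as were 0.0% of all 23999 probe sets in each of these comparisons. At an unadjusted p under 0.05 stood 12 genes in liver (10.4%) and 2 in fat (1.74%) for genotype, where 5.05% and 5.5% of all probe sets did. For the interaction these were 7 (6.09%) and 4 (3.48%), beside 5.79% and 5.7% of all probe sets. The smallest p for genotype in liver was that of SLC7A9. Its signals were 240 to 372 (median 278) in fed D298, 169 to 342 (median 223) in fed N298, 310 to 493 (median 383) in fasted D298 and 146 to 325 (median 247) in fasted N298 liver. N298 was lower by median in both feeding states, with overlapping ranges, and the difference was -0.49 ± 0.13 (unadjusted p = 0.000954, adjusted p = 0.723).

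Next in liver came SLC16A3 (-1.75 ± 0.50) and SLC7A4 (1.14 ± 0.42), both dim. In fat the smallest were SLC25A17 (0.20 ± 0.066), SLC35D2 (0.23 ± 0.10) and SLC6A4 (-0.33 ± 0.16). For the interaction, the glutamine carrier SLC38A1 in liver had medians of 587 fed and 1166 fasted in D298 and of 788 fed and 541 fasted in N298, a difference of responses of -1.61 ± 0.51 (adjusted p = 0.85). The others were SLC5A10 (-0.92 ± 0.29) and SLC25A6 (0.47 ± 0.15) in liver, and SLC26A3 (-2.05 ± 0.79), SLC2A4RG (0.43 ± 0.17) and SLC6A4 (-0.79 ± 0.33) in fat. None of these passed, which does not show that the genotypes were alike.

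Fasting tested within 1 genotype gave fewer calls, as each test had 6 fed and 6 fasted gilts. In liver 4 of the genes were called in D298 and 5 in N298, where 1.63% and 1.48% of all probe sets were called. In fat 14 were called in D298 and 16 in N298, where 12.6% and 15.5% of all probe sets were called. SLC6A8 in fat changed by 0.88 in D298 and 1.13 in N298, SLC25A6 by -0.69 and -1.04, SLC25A39 by -0.93 and -0.61, and SLC22A3 by 0.74 and 0.94. These pairs have the same direction, and the differences within them did not pass.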

How the data were processed

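The deposited table gives linear signal intensities of every probe set on each array; affy and MAS5 are the tools listed, without versions, in the submitters' processing notes. These values had been scaled, since the mean without the lowest and highest 2% was 500.1 to 500.2 on every array. Log2 was taken with nothing added. Of 24123 probe sets 124 controls were left out and 23999 tested, with no filter on dim signal.

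Gene symbols came from the array annotation: 10069 probe sets had 1 symbol, 198 several and 13732 none. Of the 115 genes 114 had their gene ID in RefSeq's table (Sscrofa11.1), with 0 symbols changed, and 38 had more than 1 probe set. The members, substrate classes and gene lists were chosen with earlier results of these data known.

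In each tissue limma 3.58.1 (R 4.3.3, lmFit, eBayes with trend) was fitted to the 4 groups with the replicate number as a block. The labels describe a block design but do not say what a block is, so this use of the number is an assumption. Tests were 2-sided and adjusted over all probe sets. The tissues were compared with the gilt as a random block (duplicateCorrelation). Liver and fat were joined by genotype, feeding state and number, a pairing that the labels do not state. For 22 of 24 gilts the liver deviations fitted best those of the same-numbered fat array among the fat arrays of their group. The models were also run on simulated data with independent noise on every array. These data held no effect of replicate number or gilt, so they could not test the block terms. Genes are named by a rule: per class and tissue up to 2 rises and 2 falls by size among called genes above the median probe set with the same sign in both genotypes, the 3 smallest p for genotype and interaction, 5 per direction for tissue levels, and SLC2A4, SLC3A2 and the ADP/ATP carriers. Other named genes (SLC1A5 and SLC2A8, SLC25A11, SLC25A17, SLC25A36, SLC25A39, SLC39A4, SLC46A3 and those of the tissue comparison) were added after their values were seen. The number of arrays limits the precision. Figures used Matplotlib 3.10.9 and pandas 2.3.3 in Python 3.11.15.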

Additional observations from a re-analysis of the deposited data

Results flagged for a closer look

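For 25 genes the fasting response differed between the tissues at an adjusted p under 0.05 in the limma model of all 48 arrays; values are the response in fat minus that in liver, on the log2 scale. Among the genes of the SLC25 family the difference was -2.23 for SLC25A33, -1.31 for SLC25A30, -1.1 for SLC25A6, -0.93 for SLC25A39, -0.87 for SLC25A20, -0.85 for SLC25A11, -0.7 for SLC25A17, -0.51 for SLC25A5, -0.28 for the phosphate carrier SLC25A3 and 0.55 for SLC25A37. SLC25A3 was not called in either tissue alone. The same holds for SLC39A2, listed below, which lay below the median probe set in both tissues. Among the amino acid carriers the difference was -1.22 for SLC1A3, -0.42 for SLC1A5, 0.66 for SLC1A1 and 0.59 for SLC38A9. In liver SLC1A3 was dim (fed signals 4.28 to 44.4), and its change there, 0.59, was not called. For carriers of fatty acids, sugars, metals and nucleotide-related substrates the difference was -2.07 for SLC27A6, -1.27 for SLC2A8, -0.51 for SLC31A1, 0.79 for the zinc carrier SLC39A2, -0.8 for SLC35A4 and -0.48 for SLC35B1. SLC2A8 lay below the median probe set in both tissues and was not called in liver, where its fed signals ran from 26.6 to 248. For the others the difference was 1.5 for SLC6A8, 0.7 for SLC22A3, 0.48 for SLC26A11, -0.61 for SLC2A4RG and 0.75 for SLC9A3R2.

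In 240 groups of 6 arrays (30 genes, 8 groups) 15 held an array far from the other 5 of its group by Dixon's criterion (6.25%), where chance gives about 1 in 20. In fed fat the low arrays were D298 replicate 1 for SLC25A33 (signal 1017) and SLC31A1 (189), D298 replicate 3 for SLC26A6 (55.5) and SLC36A2 (1273), and N298 replicate 6 for SLC1A3 (156); N298 replicate 3 was high for SLC25A5 (6412). N298 replicates 3 and 6 are among the 4 arrays with hepatocyte transcripts. In fasted fat N298 replicate 2 was low for SLC39A1 (886). In fed liver D298 replicate 2 was low for SLC25A33 (23.9), D298 replicate 6 low for SLC35F5 (2821), N298 replicate 1 high for SLC27A6 (1000) and N298 replicate 2 high for SLC31A1 (2735). In fasted liver D298 replicate 2 was high for SLC1A1 (795), N298 replicate 2 high for SLC35A4 (272), and D298 replicate 4 high for SLC35B1 (2290) and low for SLC9A3R2 (708).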

How the results depend on the processing

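Counts of called genes were recomputed with 32 added before log2, only the brighter probe sets, median-centring, quantile normalization, eBayes without trend, array weights, no replicate block or no gilt block, each replicate number left out, and the brightest probe set within the tissue. After seeing the data, fits without the 4 fat arrays with hepatocyte transcripts and with the muscle marker mean as a covariate were added. The 4 rises in fasted liver became 2 with eBayes without trend, and 2 to 4 with 1 replicate number left out (2 without replicate 4); the cause was not tested. The counts of liver falls, fat rises, fat falls, fed tissue levels in each direction and tissue differences of either sign stayed within 1.5 times their values: with 1 replicate left out, liver falls were 4 to 6, fat rises 5 to 7, fat falls 18 to 22 and tissue differences 17 to 30. Split by sign, the tissue differences moved more: 8 positive and 17 negative became 4 and 26 with median-centring, 5 and 22 with quantile normalization, 5 and 15 without replicate 4, 4 and 14 without replicate 5 and 6 and 11 without replicate 2. Genotype and interaction gave 0 calls under every setting run. No direction of a called gene reversed under these settings. Of the called genes 5 of 10 in liver and 19 of 28 in fat kept their call under every alternative. With no replicate block 5 rose and 6 fell in liver and 6 rose and 20 fell in fat. Deviations of arrays with the same number correlated by -0.006 to 0.088 (means per number) in liver and -0.024 to 0.165 in fat. For arrays of different numbers and groups the mean was -0.008 in liver and -0.011 in fat. The highest, 0.165, was that of number 2 in fat, with 5 of 6 pairs above 0.1. In liver 3 of 24 arrays and in fat 8 of 24 lay closest to one of their own number. Dim genes varied more: the median SD of log2 within groups was 0.92 below and 0.32 above the median probe set in liver, and 0.66 and 0.29 in fat.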
